A study of Mus musculus with 9 samples.

Results

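The genes described here restrain the MAP kinases, the family of signalling enzymes that includes ERK, p38 and JNK. They are 6 dual-specificity phosphatases (Dusp1, Dusp2, Dusp4, Dusp5, Dusp6 and Dusp10) and 4 genes of the Sprouty and Spred family (Spry1, Spry2, Spred1 and Spred2). They were taken by gene symbol from a table of 41388 genes, in which all 10 were present, and all 10 passed the minimum mean level of 10 normalized counts that 11599 genes reached. RNA-Seq was performed on murine Tc17 cells, the CD8+ T cells that make IL-17. Naive CD62L+CD44-CD8+ T cells from lymph nodes and spleens of C57BL/6 mice were primed for 2 days with plate-bound anti-CD3 (5 µg/ml), anti-CD28 (0.5 µg/ml), IL-2 (50 U/ml), TGF-β (0.5 ng/ml), IL-6 (30 ng/ml) and anti-IFN-γ (5 µg/ml), which all groups received. The cultures contained 0.2% of the solvent DMSO alone (Ctrl), 20 µM dimethyl fumarate (DMF), or 20 µM DMF together with 50 µM glutathione (DMF + GSH). No group received GSH without DMF, so that changes with GSH are changes in the presence of DMF, and GSH by itself was not tested. DMF is an electrophile that binds glutathione, the main small thiol of the cell, and the comparison asks which transcripts move with DMF and whether added GSH moves them again. Each of the 3 groups had 3 libraries. Replicate 1 of every group belonged to preparation batch 1 and replicates 2 and 3 to batch 2. The mice were between 8 and 12 weeks of age and matched for sex, as far as the methods describe them. The labels do not say whether replicates came from separate mice, so that the p-values measure the spread between these samples only.

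MAP kinases are switched on by phosphorylation of a threonine and a tyrosine in their activation loop. A dual-specificity phosphatase of the MAP kinase phosphatase class removes both phosphates. Many of these phosphatase genes are transcribed in response to the kinase that they switch off, which closes a feedback loop, and the enzymes differ in location and in preferred kinase. Sprouty and Spred proteins act further upstream, between the receptor, RAS and RAF, and Spred proteins bring the RAS-inactivating protein neurofibromin to the membrane. In T cells, ERK is activated through the antigen receptor and its co-receptors, and several of the genes here are known as products of T cell activation.

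The depth was 7671772 to 11589246 reads in Ctrl, 10382638 to 12669991 with DMF and 9753478 to 14511926 with DMF + GSH. Counts of the T cell markers Cd3d, Cd3e and Cd3g summed to 9338 to 12670 normalized counts in Ctrl, 8015 to 9815 with DMF and 9627 to 13520 with DMF + GSH, and those of Cd8a and Cd8b1 to 12150 to 14260, 13740 to 17400 and 11830 to 15970 in the same order. Between DMF and Ctrl, Cd8a was higher with DMF (log2 fold change 0.31, adjusted p = 0.0378, limma), and the 3 Cd3 genes passed, lower with DMF, when replicate numbers were blocked. The cytokine gene Il17f had 2619 to 4058 normalized counts in Ctrl, 721.5 to 1791 with DMF and 2694 to 4550 in DMF + GSH, and it fell with DMF by the test used below, as did Il17a. Cd4 reached at most 4.40 normalized counts, the B cell genes Cd79a and Ms4a1 at most 10.4 and 4.40, Ncr1 of NK cells at most 2.08, and the haemoglobin genes Hbb-bs and Hba-a1 were at 0 in every library. Ctrl replicate 3, the shallowest library, stood apart by 182 summed normalized counts of the myeloid genes Lyz2, Csf1r and Cd14, against 2.08 to 18.4 in the other 8 libraries. Calls without this library are therefore given for the 10 genes and, as counts only, for the other genes of the pathway. The part of this library in the results was not tested.

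The promoters of Dusp5 and Dusp1 are shown because these genes gave the largest difference between DMF and Ctrl and the largest between DMF + GSH and Ctrl among the 10. Windows run from 250 bases before to 50 bases after the RefSeq start site (GRCm38.p6), and capitals mark the motif matches found on either strand. The Dusp5 window is chr19:53528895-53529194 on the plus strand and the Dusp1 window chr17:26508423-26508722 on the minus strand.
Dusp5: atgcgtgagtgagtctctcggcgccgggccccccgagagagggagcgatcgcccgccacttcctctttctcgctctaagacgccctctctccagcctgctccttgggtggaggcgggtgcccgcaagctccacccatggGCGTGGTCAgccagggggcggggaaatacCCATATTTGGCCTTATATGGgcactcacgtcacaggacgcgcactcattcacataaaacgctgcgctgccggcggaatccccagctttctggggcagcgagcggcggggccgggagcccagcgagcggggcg
Dusp1: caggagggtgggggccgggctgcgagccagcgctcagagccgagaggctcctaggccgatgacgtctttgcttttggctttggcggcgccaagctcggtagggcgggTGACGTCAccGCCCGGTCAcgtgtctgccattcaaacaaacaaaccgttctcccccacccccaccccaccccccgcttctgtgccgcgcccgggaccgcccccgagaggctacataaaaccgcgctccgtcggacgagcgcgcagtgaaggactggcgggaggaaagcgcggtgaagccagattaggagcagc
The Dusp5 window held 2 adjacent CArG boxes, the site bound by serum response factor, CCATATTTGG at positions -82 to -73 from the start site and CCTTATATGG at -72 to -63. A CArG box occurred in 1.63% of all 32851 promoter windows of this length. The Dusp1 window held the cyclic AMP response element TGACGTCA at -143 to -136, which was in 1.79% of all windows. Both windows also held 1 match to TGACNNNGC, the core of the antioxidant response element, on the minus strand relative to the gene, GCGTGGTCA at -111 to -103 of Dusp5 and GCCCGGTCA at -133 to -125 of Dusp1, and 12.4% of all windows had such a match. The letters CCGGAA of ETS factors were found in the Spry2 window alone among the genes here, at positions 34 to 39, and in 14.9% of all windows. Neither TGANTCA (AP-1, in 7.81% of all windows) nor GCGTGGGCG (EGR, in 0.612%) was found in the windows of these genes. No matches overlapped. Of the 10 genes, 9 were in the promoter table, and Dusp4 was not. A match describes the letters of the window and shows no binding.

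Dusp5 rose with DMF, as did Spry2 and Spred1, whereas Dusp10 fell. Dusp1, Dusp2, Dusp4, Dusp6, Spry1 and Spred2 did not pass the test between DMF and Ctrl. Thus 4 of the 10 genes passed, 3 higher and 1 lower, at an adjusted p under 0.05 (limma, Benjamini-Hochberg over all genes tested). The same test called 28.0% of all genes tested (14.6% higher and 13.3% lower). When an adjusted p under 0.01 was required together with a log2 fold change of 0.75 or more in size, 1 of the 10 passed, Dusp5, and 2.89% of all genes. The median log2 fold change was 0.03 over the 10 genes and 0.01 over all genes tested. The normalized counts did not overlap between DMF and Ctrl for 4 of the 10 genes (Dusp5, Dusp10, Spry2 and Spred1), and for 41.3% of all genes. In all 3 replicate numbers 6 of the 10 moved the same way, as did 66.3% of all genes. When the model held a block for each replicate number instead of the batch, 5 of the 10 passed and 45.0% of all genes. The gene added by the block was Spry1. Without Ctrl replicate 3, 4 of the 10 passed, namely Dusp5, Dusp10, Spry1 and Spred1, beside 32.7% of all genes.

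**Figure D1:**
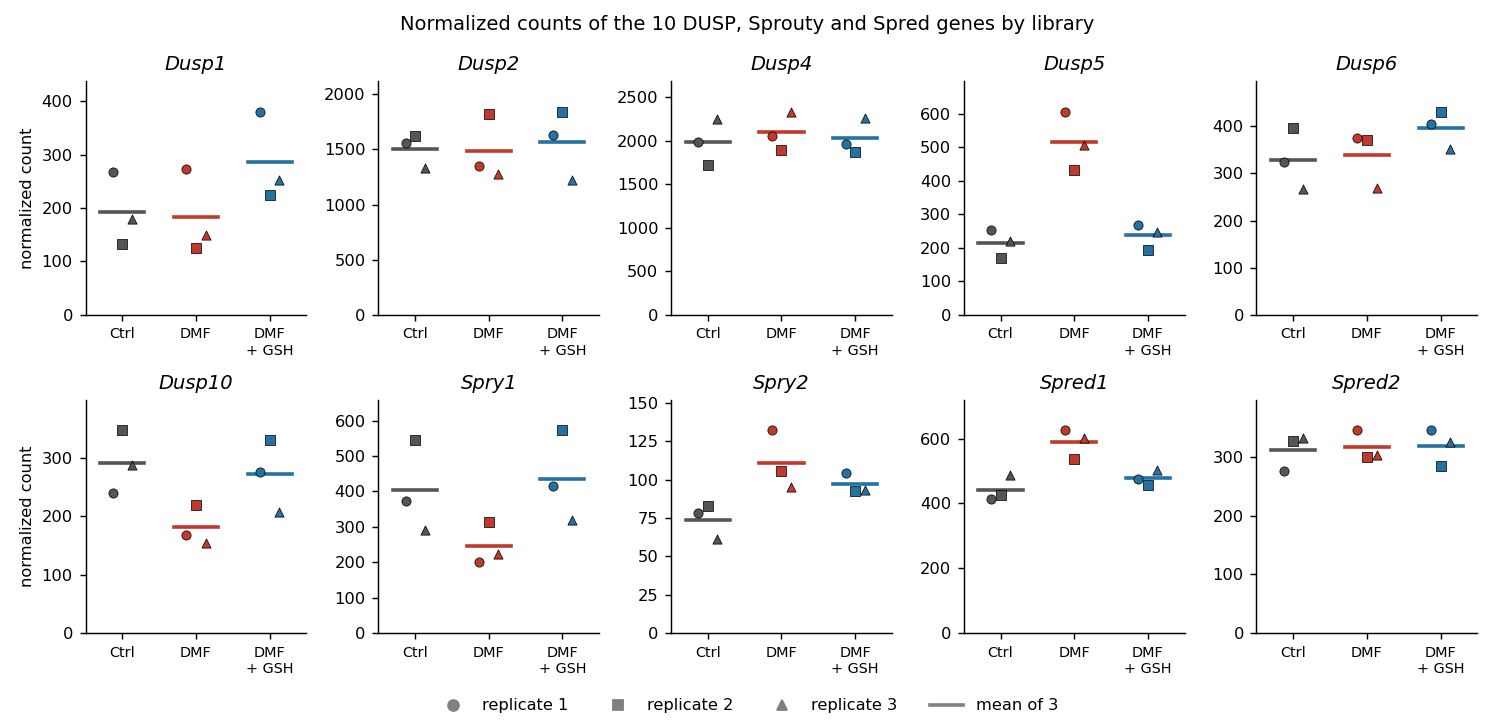
Normalized counts (vertical axes, each from 0) of the 10 genes in Ctrl, DMF and DMF + GSH, with a marker for each replicate number and a line at the mean of 3 libraries. The 3 DMF libraries of Dusp5 sit between 431 and 606 normalized counts, above all Ctrl and DMF + GSH libraries.

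Dusp5 encodes a nuclear phosphatase that is specific for ERK and also holds it in the nucleus. The gene (ENSMUSG00000034765) lies on chromosome 19 from 53529109 to 53542431 on the plus strand. Its normalized counts were 254, 168 and 219 in Ctrl replicates 1 to 3, 606, 431 and 506 with DMF, and 267, 194.5 and 248 in DMF + GSH. Every DMF library lay above every library of the other groups, and the latter overlapped each other. The mean was 214 ± 43.0 in Ctrl, 514 ± 88.1 with DMF and 237 ± 37.7 with DMF + GSH (SD, n = 3). DMF raised Dusp5 2.41-fold, a log2 fold change of 1.27 (SE 0.13, 95% interval 0.97 to 1.57, adjusted p = 0.00173, limma). Bulk RNA cannot tell more RNA per cell from more cells that carry it, nor less RNA per cell from fewer such cells, for this and the following genes. Within replicate numbers the log2 differences were 1.25, 1.35 and 1.21, so that the value of batch 1 fell between those of batch 2. Addition of GSH lowered Dusp5 relative to DMF, with a log2 fold change of -1.12 (95% interval -1.41 to -0.82, adjusted p = 0.00576) and differences of -1.18, -1.14 and -1.03 within replicate numbers. DMF + GSH and Ctrl differed by 0.16 (95% interval -0.14 to 0.45), and this interval includes 0. The rise with DMF passed under all 21 settings tried, including the omission of each library in turn, with a log2 fold change from 1.16 to 1.365 and an adjusted p of at most 0.0272. The fall with GSH passed under 19 of 21, and the adjusted p became 0.0591 when DMF replicate 1 was omitted and 0.0600 when DMF + GSH replicate 1 was.

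Dusp6, the cytoplasmic counterpart of Dusp5 with the same preference for ERK, is encoded on chromosome 10 from 99263231 to 99267489 on the plus strand (ENSMUSG00000019960). It had 324, 397 and 267 normalized counts in Ctrl, 374.5, 371 and 270.0 with DMF, and 405, 431 and 351 in DMF + GSH. The 3 groups overlapped. The log2 fold change between DMF and Ctrl was 0.04 (95% interval -0.33 to 0.41, adjusted p = 0.868, limma), an interval that lies below that of Dusp5. DMF + GSH was higher than DMF within each replicate number, by 0.11, 0.22 and 0.38 on the log2 scale. This difference of 0.24 (95% interval -0.14 to 0.61) had an adjusted p of 0.329, and of 0.0420 with the replicate block.

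Dusp1, the founding inducible nuclear phosphatase, acts on p38 and JNK and to some extent on ERK, and restrains inflammatory gene expression. The gene (ENSMUSG00000024190) lies on chromosome 17 from 26505590 to 26562128 on the minus strand, an annotated locus that reaches far upstream of the RefSeq start site. Normalized counts of 268, 132 and 179 were found in Ctrl, 274, 126 and 150.0 with DMF, and 381, 225 and 252 in DMF + GSH. Replicate 1, the library of batch 1, was the highest in every group, and the groups overlapped. The means were 193 ± 69.2, 183 ± 79.5 and 286 ± 83.2 (SD, n = 3). DMF and Ctrl differed by -0.10 on the log2 scale (95% interval -0.41 to 0.22, adjusted p = 0.633, limma). In contrast, Dusp1 rose with DMF + GSH relative to DMF by 0.68 (SE 0.14, 95% interval 0.37 to 0.998, adjusted p = 0.0140), and it was higher in each of the 3 replicate numbers, by 0.47, 0.83 and 0.74. The log2 fold change stayed between 0.58 and 0.77 under all 21 settings, but the call was lost without the batch term (adjusted p = 0.152), without DMF + GSH replicates 1 and 2 (0.0884 and 0.0583) and without DMF replicates 1 and 3 (0.0946 and 0.0602). Relative to Ctrl, Dusp1 with DMF + GSH was higher by 0.50, 0.77 and 0.49 within the replicate numbers. The fitted log2 difference was 0.59 (95% interval 0.27 to 0.90), but the adjusted p was 1, and 0.0617 with the replicate block.

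Dusp10, which prefers JNK and p38 and is known to shape cytokine production by T cells, lies on chromosome 1 from 184013302 to 184075636 on the plus strand (ENSMUSG00000039384). Its normalized counts were 240.1, 347 and 287 in Ctrl, 168, 220.0 and 155 with DMF, and 276, 331 and 208 in DMF + GSH. The highest DMF library lay below the lowest Ctrl library, while DMF and DMF + GSH overlapped. DMF lowered Dusp10 from 292 ± 53.8 to 181 ± 34.4 (SD, n = 3), a log2 fold change of -0.68 (SE 0.20, 95% interval -1.12 to -0.25, adjusted p = 0.0285, limma). It was lower in each of the 3 replicate numbers, by -0.51, -0.66 and -0.89. With DMF + GSH the gene was above DMF by 0.71, 0.59 and 0.42 within replicate numbers. This difference of 0.57 (95% interval 0.14 to 1.01) had an adjusted p of 0.06005 and passed with the replicate block (adjusted p = 0.000485). The fall with DMF did not pass without Ctrl replicate 1 (adjusted p = 0.0677), Ctrl replicate 2 (0.112), DMF replicate 1 (0.113) or DMF replicate 3 (0.12), and it passed without Ctrl replicate 3 (0.0383).

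Dusp2 and Dusp4 are nuclear phosphatases that act on ERK and, depending on the setting, on p38 and JNK, and both are induced by T cell activation. Dusp2 (ENSMUSG00000027368) lies on chromosome 2 from 127336159 to 127338376 and Dusp4 (ENSMUSG00000031530) on chromosome 8 from 34807297 to 34819894, both on the plus strand. Dusp2 had 1560, 1624 and 1332 normalized counts in Ctrl, 1347, 1820 and 1279 with DMF, and 1628, 1843 and 1226 in DMF + GSH. Dusp4 had 1982, 1717 and 2248 in Ctrl, 2060, 1894 and 2337 with DMF, and 1962, 1869 and 2264 in DMF + GSH. The groups overlapped for both genes, and in every group replicate 3 was the lowest library for Dusp2 and the highest for Dusp4. The log2 fold change between DMF and Ctrl was -0.04 for Dusp2 (95% interval -0.41 to 0.34, adjusted p = 0.889, limma) and 0.08 for Dusp4 (95% interval -0.18 to 0.35, adjusted p = 0.617). The limits of these intervals were at most 0.41 in size for Dusp2 and 0.35 for Dusp4. They come from the fit with the batch, which does not use the pairing by replicate number. Within replicate numbers the log2 differences between DMF and Ctrl were -0.21, 0.16 and -0.06 for Dusp2 and 0.06, 0.14 and 0.06 for Dusp4. Neither gene passed with the replicate block.

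**Figure D2:**
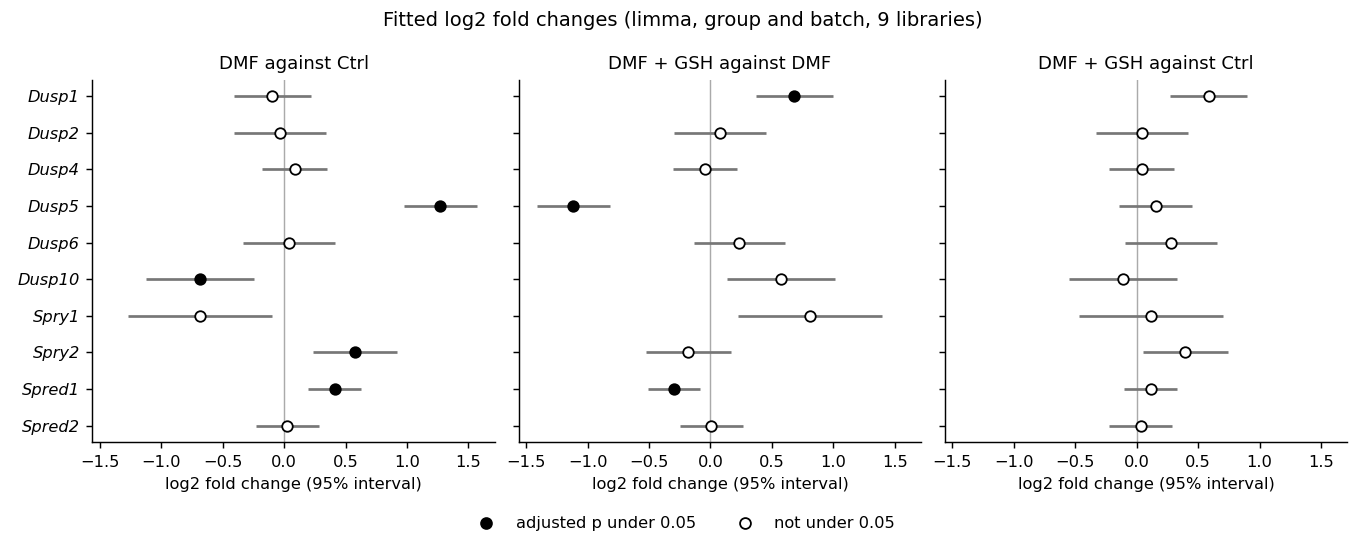
Log2 fold changes (horizontal axes) of the 10 genes in the 3 comparisons from the model of group and batch over 9 libraries, with 95% intervals as lines and filled points for an adjusted p under 0.05. Dusp5 stands at 1.27 between DMF and Ctrl and at -1.12 between DMF + GSH and DMF, and no point is filled between DMF + GSH and Ctrl.

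Per kilobase of merged exons (GENCODE vM21), which allows levels of different genes to be compared, Dusp2 and Dusp4 were the most abundant of the 10 in every group. In Ctrl their levels were 752 ± 76.5 and 723.5 ± 97.0 normalized counts per kilobase (SD, n = 3), and their ranges overlapped. A gap separated them from Spry1 (139 ± 44.8), Dusp6 (105 ± 20.7), Dusp10 (95.9 ± 17.7), Dusp5 (86.4 ± 17.4), Spred2 (67.4), Spred1 (65.2) and Dusp1 (58.3), each of which overlapped the next in this order. The merged exons of Dusp1 (3311 bases) and Dusp10 (3042 bases) are those of their whole annotated loci. The Dusp10 locus, from 184013302, also begins upstream of its RefSeq promoter window, which starts at 184034131. For both genes the level per kilobase, the place and the share below depend on that annotation. Spry2 was the lowest in Ctrl with 35.4 ± 5.42, and its range did not overlap that of Dusp1. With DMF, Dusp5 moved to the third place at 208 ± 35.6 normalized counts per kilobase, with a range apart from those of Dusp2 above and of Dusp6 (108) below. Dusp10 was at 59.5, near Dusp1 (55.4) and Spry2 (53.1). With DMF + GSH, Spry1 (150) and Dusp6 (126) again stood above Dusp5 (95.7), and the latter overlapped Dusp10 (89.3).

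Among the 6 phosphatase transcripts, summed per kilobase, Dusp5 made up 4.73 ± 0.853% in Ctrl, 10.8 ± 2.02% with DMF and 5.00 ± 0.920% with DMF + GSH (SD, n = 3). The share of Dusp10 was 5.28 ± 1.09%, 3.06 ± 0.481% and 4.62 ± 0.823%. Dusp2 and Dusp4 each held between 38.1% and 41.3% on average in every group. The summed level of the 6 was 1821 ± 42.5 normalized counts per kilobase in Ctrl, 1936 ± 62.5 with DMF and 1921 ± 109.5 with DMF + GSH. These shares were given no test.

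**Figure D3:**
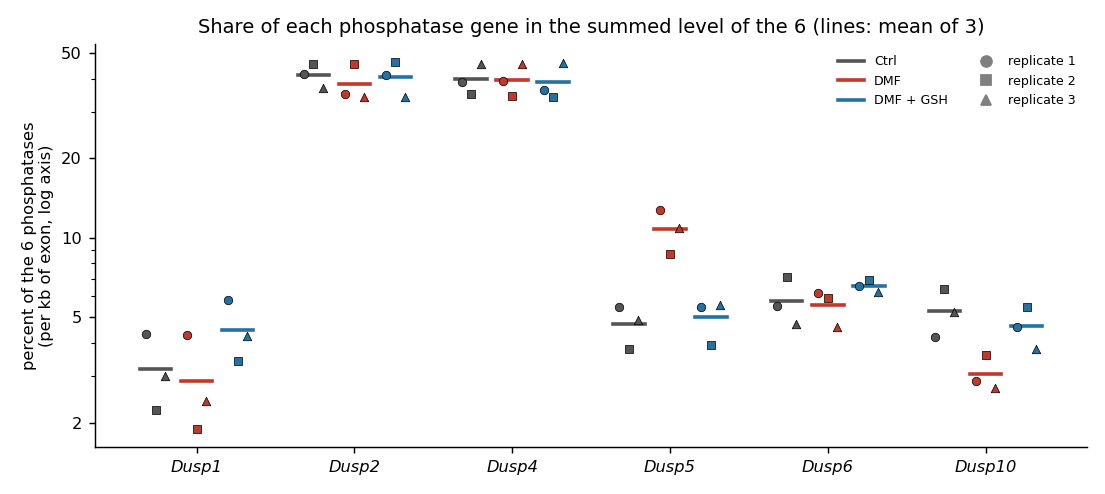
Share of each of the 6 phosphatase genes in their summed level per kilobase of exon (vertical log axis, percent) by group, with a marker for each replicate number and a line at the mean of 3. Dusp5 goes from a mean of 4.73% in Ctrl to 10.8% with DMF and 5.00% with DMF + GSH, while Dusp2 and Dusp4 each average 38.1% to 41.3%.

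Of the Sprouty and Spred genes, Spred1 and Spry2 rose with DMF, and Spry1 had lower values that did not pass the test. Spred1 holds back RAS activation together with neurofibromin. The gene (ENSMUSG00000027351) lies on chromosome 2 from 117121374 to 117182279 on the plus strand. It had 415, 426 and 486 normalized counts in Ctrl, 626, 537 and 602 with DMF, and 474, 457 and 502 in DMF + GSH. Every DMF library was above every library of the other groups. The rise with DMF was 0.41 on the log2 scale (SE 0.10, 95% interval 0.20 to 0.62, adjusted p = 0.0143, limma), with 0.59, 0.33 and 0.31 within replicate numbers, so that the value of batch 1 was the highest. With DMF + GSH it fell relative to DMF by 0.30 (95% interval -0.51 to -0.09, adjusted p = 0.0491), in each of the 3 replicate numbers. This second call lay at the limit and held under 10 of 21 settings, with an adjusted p from 0.00463 with the replicate block to 0.248 without DMF replicate 1. The first did not pass without Ctrl replicate 1 (adjusted p = 0.0825), Ctrl replicate 2 (0.058), DMF replicate 1 (0.0989) or DMF replicate 3 (0.0645), and it passed without Ctrl replicate 3 (0.00737).

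Spred2, which has the same function as Spred1, lies on chromosome 11 from 19924375 to 20024026 on the plus strand (ENSMUSG00000045671). The groups could not be told apart, with 275 to 331 normalized counts in Ctrl, 299.6 to 345 with DMF and 284 to 345.5 with DMF + GSH. The log2 fold change between DMF and Ctrl was 0.02 (95% interval -0.23 to 0.28, adjusted p = 0.888, limma). The interval of Spred1, 0.20 to 0.62, overlaps it, and the difference between these genes was not tested.

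Spry2 blocks receptor signalling to ERK upstream of RAF. Its mean per kilobase was the lowest of the 10 in every group, but with DMF its range overlapped that of Dusp1. Spry2 (ENSMUSG00000022114) lies on chromosome 14 from 105891947 to 105896819 on the minus strand. Its normalized counts were 77.9, 82.7 and 61.1 in Ctrl, 132, 105 and 94.8 with DMF, and 104.5, 92.8 and 93.3 in DMF + GSH, and the lowest value rested on 43 reads. The Ctrl libraries lay below those of the other groups, which overlapped each other. Spry2 rose with DMF by 0.58 on the log2 scale (SE 0.15, 95% interval 0.23 to 0.92, adjusted p = 0.0226, limma), with 0.76, 0.35 and 0.63 within replicate numbers. Unlike Dusp5, it did not pass between DMF + GSH and DMF, where the log2 fold change was -0.18 (95% interval -0.52 to 0.16, adjusted p = 0.421). Between DMF + GSH and Ctrl the difference was 0.40 (95% interval 0.05 to 0.74), with values of 0.42, 0.16 and 0.60 within replicate numbers and an adjusted p of 1. The rise with DMF was not called without Ctrl replicate 3 (adjusted p = 0.0504), Ctrl replicate 1 (0.102), DMF replicate 1 (0.131) or DMF replicate 3 (0.05615).

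Spry1, an inhibitor of the same step that is induced by antigen receptor signalling, lies on chromosome 3 from 37639947 to 37644598 on the plus strand (ENSMUSG00000037211). It had 374, 545 and 290.1 normalized counts in Ctrl, 200, 314 and 224.5 with DMF, and 415, 573 and 319 in DMF + GSH. Replicate 2 was the highest in every group, DMF overlapped Ctrl, and all DMF libraries lay below all DMF + GSH libraries. The log2 fold change between DMF and Ctrl was -0.69 (SE 0.26, 95% interval -1.27 to -0.10, adjusted p = 0.0761, limma), close to that of Dusp10, with a larger SE. Within replicate numbers Spry1 was lower with DMF by -0.90, -0.79 and -0.37, and the replicate block gave an adjusted p of 2.49e-05. Between DMF + GSH and DMF the difference was 0.81 (95% interval 0.22 to 1.39, adjusted p = 0.0521, and 5.36e-06 with the replicate block), with 1.05, 0.87 and 0.50 within replicate numbers. Without Ctrl replicate 3, Spry1 passed in both comparisons, with a log2 fold change of -0.95 between DMF and Ctrl (adjusted p = 0.0166) and of 0.81 between DMF + GSH and DMF (0.0247).

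**Figure D4:**
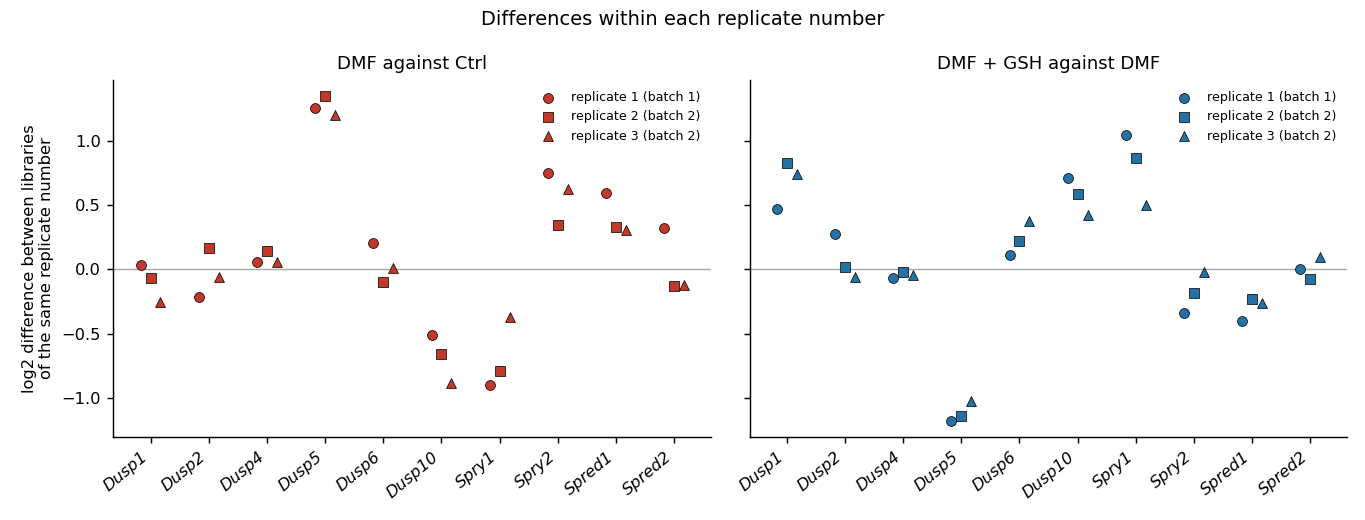
Log2 differences (vertical axis) between libraries of the same replicate number, DMF minus Ctrl on the left and DMF + GSH minus DMF on the right, with a marker for each replicate number. Dusp5 lies between 1.21 and 1.35 on the left and between -1.18 and -1.03 on the right, and Spry1 and Dusp10 are below 0 on the left and above 0 on the right in all 3 replicate numbers.

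In the comparison of DMF + GSH with DMF, 3 of the 10 genes passed the test. Dusp1 was higher, and Dusp5 and Spred1 were lower with GSH. In all genes tested 22.3% passed (9.99% higher and 12.4% lower). Dusp5 alone passed the stricter limits, which 0.543% of all genes did. With the replicate block 6 of the 10 passed (Dusp1, Dusp5, Dusp6, Dusp10, Spry1 and Spred1), against 41.5% of all genes. Without Ctrl replicate 3, 4 of the 10 passed (Dusp1, Dusp5, Spry1 and Spred1), beside 25.9% of all genes. The libraries did not overlap for 3 of the 10 (Dusp5, Spry1 and Spred1) and for 38.25% of all genes. In all 3 replicate numbers 8 of the 10 moved the same way, and 65.2% of all genes. Between DMF + GSH and Ctrl, 0 of the 10 and 0% of all genes passed with limma, where 222 genes had an unadjusted p under 0.05. The count of genes was also 0 with edgeR, DESeq2 and voom when these were run on recovered reads, whereas the replicate block called 4 genes (0.0345%), none of them among the 10. Since the comparisons share libraries, a rise and the following fall of a gene are not independent, and a high or low set of DMF libraries moves both.

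The other genes of the pathway were grouped into lists of 60 genes in all, of which 56 were tested. Between DMF and Ctrl 17 passed, 10 higher and 7 lower, which is 30.4% of those tested, near the 28.0% of all genes. Between DMF + GSH and DMF 13 passed (8 higher and 5 lower, 23.2%), against 22.3% of all genes, and between DMF + GSH and Ctrl 0 passed. With the replicate block, 24 of the 56 passed between DMF and Ctrl (42.9%, against 45.0% of all genes) and 22 between DMF + GSH and DMF (39.3%, against 41.5%). Both counts include Spry4, with means of 9.42 normalized counts in Ctrl, 20.5 with DMF and 9.91 with DMF + GSH. That gene reached the minimum mean of 10 only through the DMF libraries, so its calls are no independent result. Without Ctrl replicate 3, all 17 genes called between DMF and Ctrl and all 13 called between DMF + GSH and DMF were called again, in totals of 20 and 13 of the 56. The 20 include Dusp18, with means of 7.31 normalized counts in Ctrl, 15.1 with DMF and 9.08 with DMF + GSH. Like Spry4, it reached the minimum mean only through the DMF libraries.

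Of the other phosphatases, none of the 3 classical MAP kinase phosphatases tested passed between DMF and Ctrl. The most abundant of them were Dusp7, which is specific for ERK, with a log2 fold change of 0.08 (adjusted p = 0.562, limma), and Dusp16, which prefers JNK, with -0.19 (adjusted p = 0.249). Among 9 atypical dual-specificity phosphatases, 1 rose and 1 fell, beside 28.0% of all genes called, and 3 passed with the replicate block, beside 45.0%. Dusp14 rose by 0.74 (adjusted p = 0.01755), from 70.7, 66.9 and 101 normalized counts in Ctrl to 116, 139.5 and 140.3 with DMF, and DMF + GSH had 60.5, 75.0 and 100.1. Dusp11, which acts on RNA, fell by 0.32 (adjusted p = 0.0166). Of the 2 other Sprouty and Spred genes tested, Spred3 was low, with 41.6, 27.9 and 15.6 normalized counts in Ctrl and 12.7, 11.98 and 11.6 with DMF, and fell by 1.06 (adjusted p = 0.0420).

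Along the ERK cascade from adaptors to kinases, 4 of 18 genes passed between DMF and Ctrl, where 28.0% of all genes did, and 7 of 18 with the replicate block, where 45.0% did. Hras, a RAS GTPase, rose by 0.50 on the log2 scale (adjusted p = 0.00979, limma), and Ptpn11, the phosphatase SHP2 that promotes RAS activation, by 0.26 (adjusted p = 0.0360). Mapk3, which encodes ERK1, fell from 768, 798 and 761 normalized counts in Ctrl to 473, 592 and 507 with DMF, and was at 701, 766 and 733 with DMF + GSH. Its log2 fold change was -0.57 (adjusted p = 0.00460). Araf, a RAF kinase, fell by 0.20 (adjusted p = 0.0326).

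In the p38 and JNK cascades 6 of 14 genes passed between DMF and Ctrl, 3 in each direction, beside 28.0% of all genes. The replicate block gave 8 of 14, beside 45.0%. Map2k3, a kinase that activates p38, rose from 1014, 956 and 1230 normalized counts in Ctrl to 2123, 1615 and 2202 with DMF (log2 fold change 0.89, adjusted p = 0.00649, limma). Gadd45b, a stress-inducible activator of MAP3K4, rose by 1.10 (adjusted p = 0.0107), and Map2k4, which activates JNK, by 0.33 (adjusted p = 0.0251). The members that fell were Map3k5, the redox-sensitive kinase ASK1, by 0.84 (adjusted p = 0.00689), Map3k1 by 0.42 (adjusted p = 0.0387), and Mapk14, which encodes p38α, by 0.28 (adjusted p = 0.0266).

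Among genes transcribed in response to ERK, 12 were listed and 10 tested, of which 4 rose and 0 fell between DMF and Ctrl, beside 14.6% and 13.3% of all genes, and 4 passed with the replicate block, where 45.0% of all genes did. These were Myc by 0.87 (adjusted p = 0.00554, limma), the AP-1 subunit Fosl1 by 0.82 (adjusted p = 0.01825), the ETS factor Etv4 by 0.81 (adjusted p = 0.0147) and Phlda1 by 0.75 (adjusted p = 0.0167). The median log2 fold change of these 10 was 0.43 between DMF and Ctrl, -0.05 between DMF + GSH and DMF and 0.29 between DMF + GSH and Ctrl, and that of all genes 0.01, -0.0017 and -0.0005. One of the 10, Ccnd1, had means of 7.44 normalized counts in Ctrl, 11.8 with DMF and 15.8 with DMF + GSH. It reached the minimum mean of 10 only through the libraries that received DMF, and it is part of these medians. The list was chosen with earlier results known, and its median was not tested. Myc was at 1977, 2178 and 2363 normalized counts in Ctrl, 4514, 3297 and 4147 with DMF, and 2051, 1812 and 2408 in DMF + GSH. Fos, an immediate early gene chosen here after its values were seen, followed the order of Dusp1 among the groups. Its normalized counts were 254, 135 and 156 in Ctrl, 139.7, 133 and 133 with DMF, and 501, 265 and 214 in DMF + GSH, and it rose between DMF and DMF + GSH by 1.17 (adjusted p = 0.0107). Egr1, Ier2 and Ier3 of the same list did not follow this order. Their means in Ctrl, DMF and DMF + GSH were 1041, 1162 and 1032 for Egr1, 1335, 1491 and 1480 for Ier2, and 114.7, 90.6 and 96.7 for Ier3.

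**Figure D5:**
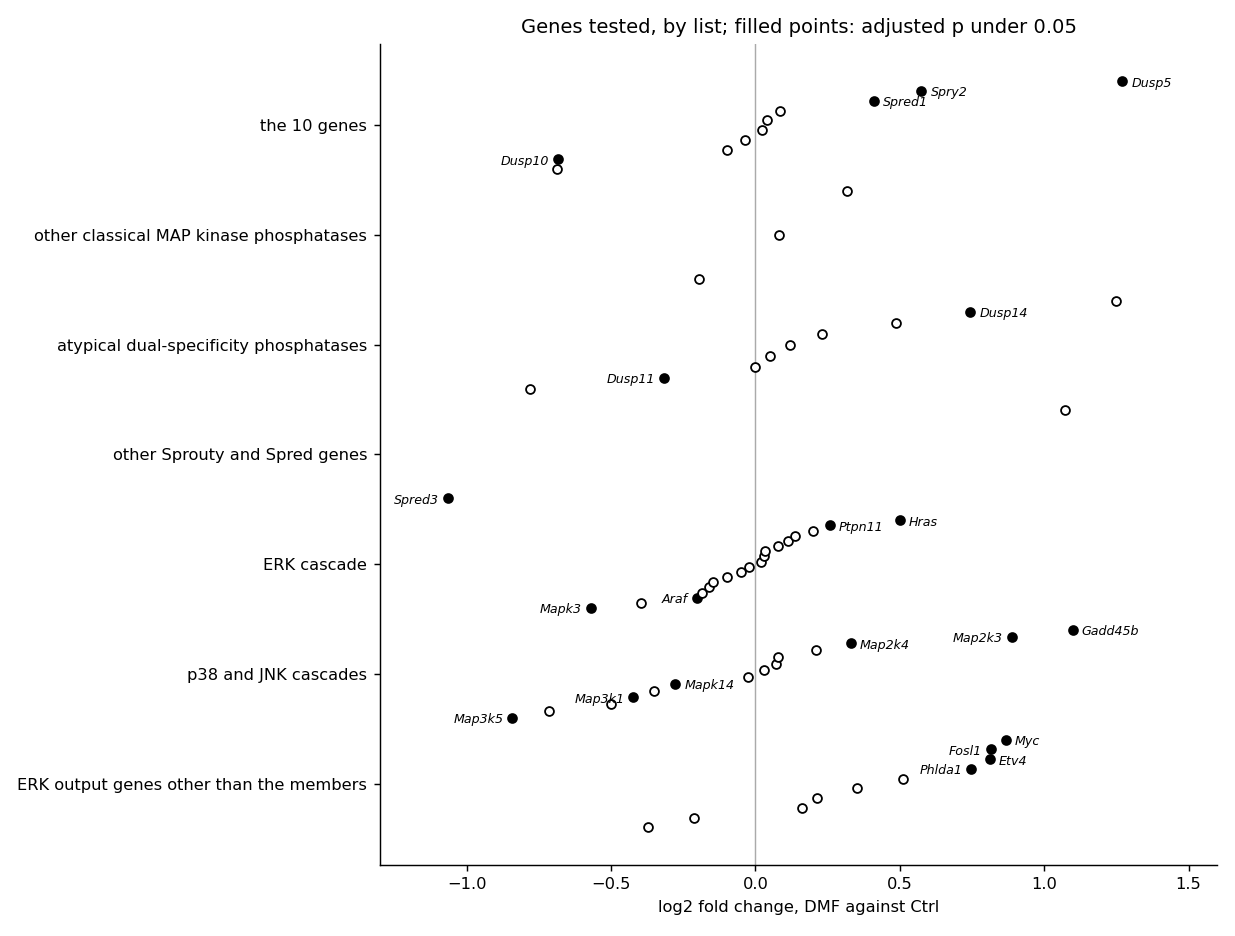
Log2 fold changes between DMF and Ctrl (horizontal axis) of all tested genes of each list, ordered by value within a list, with filled and named points for an adjusted p under 0.05. Of the 56 pathway genes below the first row, 17 are filled, 10 to the right and 7 to the left of 0.

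The genes whose centred log2 profile over the 9 libraries was closest to that of Dusp5 were Fam84b, Igha and Rxra, the last of which encodes a retinoid X receptor. The root mean square differences were 0.149, 0.161 and 0.1785 log2 units, and the median over all genes tested was 0.628. Fam84b had means of 64.6, 141 and 70.5 normalized counts in Ctrl, DMF and DMF + GSH, Igha, an immunoglobulin heavy chain gene, of 264, 574.5 and 256, and Rxra of 132, 312 and 136. The B cell genes given above were at most 10.4 in any library. For Dusp10, the called gene with the largest fall, the closest were Lgals4, Zfp260 and Arel1 with 0.0931, 0.0963 and 0.0969 log2 units against a median of 0.426. These distances describe the libraries, share their depth and batch, and carry no test.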

How the data were processed

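According to the methods and the submitters' processing notes, the authors sequenced poly(A) libraries with single reads of 50 bp, aligned them to GRCm38 with STAR 2.4.0b and counted reads per gene with featureCounts. The strand setting of the counting is not stated in the sources used here. The deposited values are a signal per gene, the read counts divided by a size factor of each library (normalized counts). Dividing a library by the value of 1 read gave whole numbers for 100% of values (tolerance 0.01), which served as depth. Columns of the authors' own comparison were not used, and human samples are not analysed here.

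Groups were compared with limma-trend (limma 3.58.1, R 4.3.3) on log2(normalized count + 1), with 11599 genes of a mean of at least 10 over 9 libraries, group and preparation batch as terms, and Benjamini-Hochberg adjustment. Fold changes are on this log2 scale and understate those of low genes. Intervals are 95% limits of the fit. Alternatives were the replicate block, omission of each library, a fit without the batch, TMM rescaling, other minimum means (none or 50), other pseudocounts (0.5 or 4), a fit of the 6 libraries of a comparison alone, and edgeR 4.0.16 (quasi-likelihood), DESeq2 1.42.0 and voom on the recovered reads.

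The replicate numbers in the labels paired the samples. After subtraction of group means, 9 pairs of libraries with the same number correlated over genes with 0.447 to 0.578, and 18 pairs with different numbers with -0.471 to -0.0620. Blocked values are given where they change a call among the 10 genes, and for the pathway lists as counts.

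The genes and lists were chosen with earlier results of these data known. From the lists, every gene called between DMF and Ctrl was named (at most 6 per list), or the 2 most abundant where none was called, and for the called members with the largest rise and fall the 3 genes of closest profile. Positions are from GENCODE vM21 (GRCm38). Tables were made in Python 3.11.15 (NumPy 2.4.6, pandas 2.3.3) and figures with Matplotlib 3.10.9.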

Additional observations from a re-analysis of the deposited data

How the results depend on the processing

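Of the 10 genes, 4 passed between DMF and Ctrl and 3 between DMF + GSH and DMF. Omission of single libraries gave 1 to 5 of the 10 (110 to 3789 of all genes, against 3242) between DMF and Ctrl, and 0 to 5 (10 to 3097, against 2592) between DMF + GSH and DMF. The fewest calls came without DMF replicate 1 (1 of the 10 and 110 genes) in the first comparison and without DMF + GSH replicate 1 (0 of the 10 and 10 genes) in the second. An omission leaves fewer samples. The replicate block, which uses the pairing, raised the calls to 5224 genes and 5 of the 10 between DMF and Ctrl, to 4814 genes and 6 of the 10 between DMF + GSH and DMF, and to 4 genes between DMF + GSH and Ctrl. It ended no call among the 10. Without a batch term, 1 of the 10 (Dusp5) and 2149 of 11599 genes passed between DMF + GSH and DMF, and the cause was not tested. Pseudocounts, minimum levels, TMM rescaling, the restriction to the 6 libraries compared, edgeR, DESeq2 and voom gave 4 or 5 of the 10 between DMF and Ctrl and 2 to 4 between DMF + GSH and DMF. Of all genes they called 2737 to 3310 and 2229 to 2649 of 11599, with no minimum 2821 and 2111 of 26629, and with a minimum mean of 50 3093 and 2507 of 9646. No called value of the 10 genes changed its sign under these alternatives. Spry2 rested on the fewest reads of the 10, with 43 to 125 in a library.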

Other observations

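Between DMF + GSH and DMF, a comparison that shares the DMF libraries with that of DMF and Ctrl, 13 of the 56 other pathway genes tested passed (limma), which is 23.2%, near the 22.3% of all genes. With GSH, Mapk3 was higher than with DMF alone by 0.49 on the log2 scale (adjusted p = 0.0107), Map3k5 by 0.68 (adjusted p = 0.0158), Mapk14 by 0.35 (adjusted p = 0.0160) and Spred3 by 1.21 (adjusted p = 0.0322). Myc fell by 0.93 (adjusted p = 0.00809), Map2k3 by 0.74 (adjusted p = 0.0136), Dusp14 by 0.77 (adjusted p = 0.0201), Hras by 0.48 (adjusted p = 0.0151) and Fosl1 by 0.67 (adjusted p = 0.0422). Phlda1, which rose with DMF, had a log2 fold change of -0.09 with GSH (adjusted p = 0.765) and Etv4 of -0.39 (adjusted p = 0.163), so that neither passed in this comparison. Gadd45a, which binds and activates a p38 and JNK pathway kinase, did not pass between DMF and Ctrl and rose with GSH by 0.69 (adjusted p = 0.0443). The genes of this paragraph that were not called between DMF and Ctrl were chosen after their values were seen. Spry4 was a low gene with 6.50 to 11.4 normalized counts in Ctrl and 18.0 to 22.3 with DMF. It reached the minimum mean of 10 only through the DMF libraries, as did Dusp18. Both genes are counted among the 56 tested. Spry4 is also among those passing with the replicate block, and Dusp18 among those passing without Ctrl replicate 3. The values of these genes are given as a description, and no result is drawn from their calls.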
